A study of Mus musculus with 3 samples.

Results

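The HIF1A peaks of the histone gene intervals on mouse chromosomes 13 and 3 are described here. A peak belonged to the set when its start, in build mm9, lay from 21 Mb to just under 24 Mb on chromosome 13 (the Hist1 interval) or from 96 Mb to just under 97 Mb on chromosome 3 (the Hist2 interval). The 2 peak lists together held 146 such peaks of 5735. Replicate 1 contributed 99 of its 3055 peaks (3.24%), 85 in Hist1 and 14 in Hist2, and replicate 2 contributed 47 of its 2680 (1.75%), 42 and 5. These stretches were selected on peak positions, being known as places of packed peaks, so their peak number is part of the choice and not a finding. Fold and sharing of the peaks in these lists were also known when the choice was made. All values from these lists are given as descriptions, without tests.

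HIF1A is the oxygen-regulated subunit of a transcription factor that accumulates when oxygen is short and binds DNA together with ARNT at a short core motif. The study precipitated chromatin from the immortalized melanocyte line melan-Ink4a-Arf-null, which came from Cdkn2a tm1RDp/tm1RDp mice, with an anti-HIF1A antibody, and sequenced the DNA. There were 2 HIF1A ChIP samples and 1 input sample of the same line. All 3 samples were grown in 10% serum with TPA, a phorbol ester, at 200 nM and cholera toxin at 200 pM, and were kept at 1% oxygen for 24 hours before fixation. The file headers count 76075544 and 86978508 unique ChIP tags in replicates 1 and 2. No normoxic sample was analysed here, so nothing below is a response to oxygen. The labels do not say whether the ChIP samples came from separate cultures, and the spread between them may be technical. Peak lists carry no expression values, so the melanocyte identity could not be checked against marker genes.

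Replication-dependent histone genes encode the proteins that package newly copied DNA. H2A, H2B, H3 and H4 form the nucleosome core, and H1 binds the linker DNA between nucleosomes. These short genes lie in clusters, are switched on together in S phase with the help of the coactivator NPAT, and give mRNAs that end in a stem-loop in place of a poly(A) tail. The RefSeq gene table at hand (GRCm38.p6) is of another build than the peaks. It was therefore used only for names and gene order, and no peak was assigned to a gene. The table listed 55 histone genes in the Hist1 cluster: 6 of the H1, 14 of the H2A, 15 of the H2B, 9 of the H3 and 11 of the H4 family. The Hist2 cluster had 10: 4 of the H2A, 2 of the H2B, 3 of the H3 and 1 of the H4 family.

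Histone genes were not the most numerous genes in the order of Hist1. Between the first and the last histone gene the table listed 255 genes, of which 77 were tRNA genes, 75 vomeronasal receptor genes or pseudogenes, 55 histone genes and 48 others. tRNA genes are transcribed by RNA polymerase III from promoters inside the gene, and vomeronasal receptors are pheromone receptors of sensory neurons. Leaving the other genes aside, the order ran from 27 tRNA genes to 19 histone genes (H2bc13 to H4bc24), 31 tRNA genes, 5 histone genes (H2ac12 to H2bc11), 1 tRNA gene, 75 vomeronasal receptor genes, 45 tRNA genes and 31 histone genes (H4c8 to H2ac1). The 27 tRNA genes were those among the 100 genes before the first histone gene. On chromosome 3 the 10 histone genes were followed by 25 tRNA genes among the next 50 genes. The name of the intervals thus stands for their position. Whether a given peak lay at a histone gene, at a tRNA gene or between genes was not determined.

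Promoters of the histone genes were scanned for the HIF core, ACGTG or GCGTG on either strand, because the antibody was against HIF1A. The sequences are RefSeq's for GRCm38.p6, from 250 bases before to 50 after the start, and 59 of the 65 histone genes had an entry, with 60 windows in all. The core was present in 27 of the 60 (45.0%, exact 95% interval 32.1 to 58.4%), and in 14380 of all 32851 promoter windows (43.8%). By family it was found in 3 of 6 H1, 8 of 17 H2A, 6 of 16 H2B, 4 of 10 H3 and 6 of 11 H4 windows. The share in histone promoters was thus close to that of promoters at large. Its interval covers counting error only. The H2ac1 and H2bc1 windows share bases on opposite strands, so the windows are not all independent. A match is a run of letters and not a bound site. The 120 bases before the start are shown for the lowest-numbered gene of each family, with matches in capitals (H3c1 is named only):
H1f1: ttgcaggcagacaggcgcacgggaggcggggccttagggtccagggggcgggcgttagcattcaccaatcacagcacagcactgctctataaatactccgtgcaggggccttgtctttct
H2ac1: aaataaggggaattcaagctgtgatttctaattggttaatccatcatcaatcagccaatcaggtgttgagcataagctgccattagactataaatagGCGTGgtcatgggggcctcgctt
H2bc1: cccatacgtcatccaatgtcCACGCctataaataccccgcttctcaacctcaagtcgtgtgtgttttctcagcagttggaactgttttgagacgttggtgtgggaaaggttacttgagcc
H4c1: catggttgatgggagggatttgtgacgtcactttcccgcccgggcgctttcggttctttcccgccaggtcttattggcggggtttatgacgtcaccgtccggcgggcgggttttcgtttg
H2ac1 and H2bc1, which encode testis histones, held 1 match each in these bases, and H1f1, a linker histone gene, and H4c1, an H4 gene, held 0. No peak was placed in any of these promoters, and the sequences under the peaks were not read for want of an mm9 genome.

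Along Hist1 the peaks fell into separate groups with long empty stretches between them. Merging overlapping peaks of both lists gave 85 regions there, covering 46126 bp, and 47 of the 84 gaps between neighbours were at most 5 kb. Joining regions up to 50 kb apart gave 9 groups, of which 4 were single regions. The first large group, at 21252416 to 21418879, had 20 peaks of replicate 1 and 14 of replicate 2 over 166.464 kb. The next, at 21939782 to 22142878, had 26 and 8 over 203.097 kb. It was followed by the longest empty stretch, 1234 kb without a peak in either list. The group at 23377171 to 23401182 had 5 peaks and 1 peak, and that at 23488712 to 23636541 had 28 and 18 over 147.83 kb, the highest number of any group. A small group at 21802167 to 21808933 had 2 peaks and 1 peak.

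**Figure D1:**
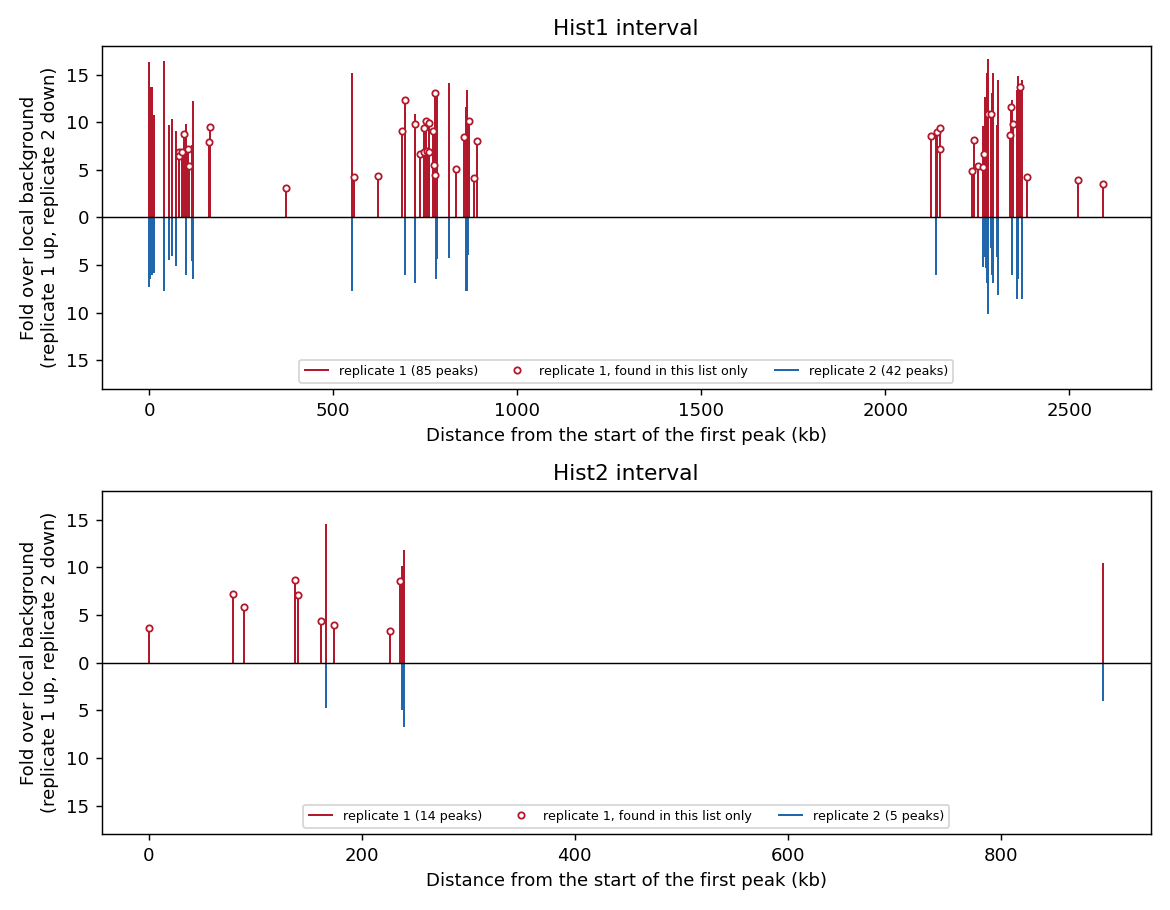
Fold enrichment over local background of every peak in the Hist1 (top) and Hist2 (bottom) intervals, against distance in kb from the start of the first peak. Replicate 1 points up and replicate 2 down, and open circles mark peaks found in the replicate 1 list only. Hist1 peaks stand in groups on both sides of a 1234 kb stretch with none, and each replicate 2 line faces a replicate 1 line.

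Fold enrichment, the authors' ratio of ChIP signal over local background at each peak, was high for these peaks within the replicate 1 list and near the middle of the replicate 2 list. The 99 members of replicate 1 ranged from 3.08 to 16.63 with a median of 9.22, against 5.32 for the whole list, and their median list percentile was 87.4. The 47 members of replicate 2 ranged from 3.21 to 10.14 with a median of 6.08, against 5.68 for the whole list, at a median percentile of 56.8. In replicate 1, 39 members (39.4%) reached a fold of 10, as did 9.36% of the list. In replicate 2 it was 1 member (2.13%), beside 9.59% of the list. At rank 100 or better by fold, replicate 1 had 17 members among 104 peaks, ties included, and replicate 2 had 0 among 102. By the p-based score, 10 times -log10 of the caller's p, the top 100 held 3 members of replicate 1 and 1 of replicate 2. The median score of replicate 1 members was 264.55, against 103.51 for the list, at a median percentile of 81.7. Members of replicate 1 thus stood high by fold and somewhat less so by score, with few in the top 100 by score. They were not long, with a median of 492 bp against 559 bp for the list and 100 tags against 103. Members of replicate 2 had a median length of 339 bp and 53 tags, with 366.5 bp and 74 tags for the list.

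Every member of replicate 2 overlapped a member of replicate 1, whereas most members of replicate 1 had no counterpart. All 47 members of replicate 2 were shared by at least 1 bp (exact 95% interval 92.5 to 100%), beside 72.2% of that list. Of replicate 1's members 42 of 99 were shared (42.4%, 32.5 to 52.8%), beside 58.1% of that list. The whole list holds the packed X block, where 92.7% of replicate 1 peaks were shared. Of the 1844 replicate 1 peaks in no 1 Mb window with 8 or more peaks in either list, 43.3% were shared, close to the share of members, and of the 1062 such peaks of replicate 2 it was 76.5%. The 5 extra peaks of replicate 2 arose where 1 wide peak of replicate 1 overlapped 2 of replicate 2. The best-matching peak of replicate 2 lay wholly inside its replicate 1 partner in 38 of 42 pairs (90.5%), and in 1014 of the 1700 pairs elsewhere (59.6%). Intervals on shares cover counting error only, and neighbouring peaks may not be independent.

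**Figure D2:**
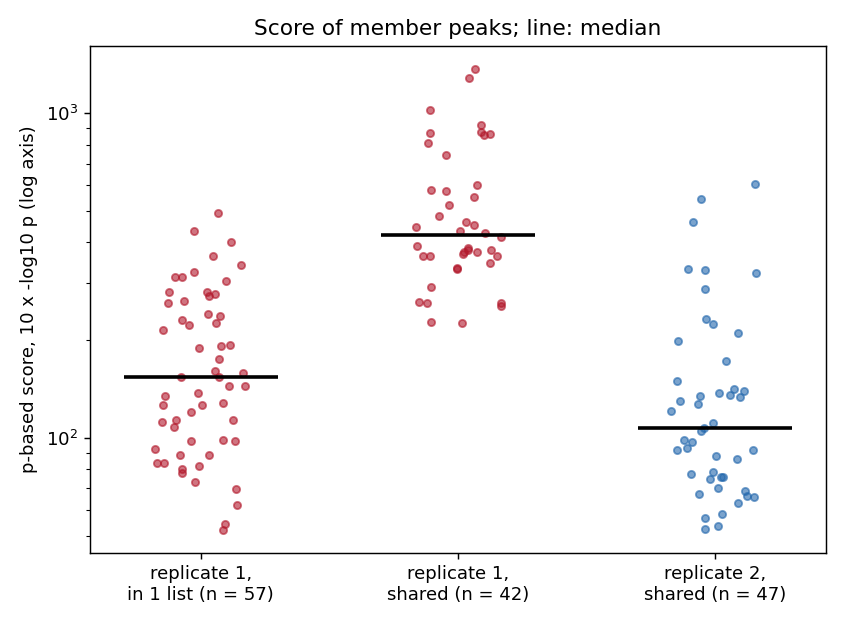
The p-based score (10 times -log10 p, log axis) of each member peak, for replicate 1 peaks found in 1 list, replicate 1 peaks shared and replicate 2 peaks, with the median as a line. The medians are 153.5, 421.845 and 106.98, and 15 shared peaks of replicate 1 lie above every unshared one.

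Shared members of replicate 1 were the stronger ones. Their median fold was 12.29 (range 7.61 to 16.63) and their median tag number 118, against 7.17 (3.08 to 13.74) and 68 tags for the 57 found in replicate 1 alone. The lowest score among shared members was 226.41 and the highest among unshared members was 492.77, so the 2 sets overlapped. Of the 33 members with the lowest scores (52.16 to 174.99), 0 were shared (exact upper limit 10.6%), while 49.5% of the 2002 replicate 1 peaks elsewhere in that score range were, and 29.6% of the 1226 outside packed windows. Of the 33 in the middle (189.32 to 364), 12 were shared (36.4%, 20.4 to 54.9%), beside 77.6% of 420 peaks elsewhere and 66.8% of 253 outside packed windows. Of the 33 highest (364.05 to 1369.96), 30 were shared (90.9%, 75.7 to 98.1%), beside 97.5% of 275 and 96.8% of 189. In the highest range the members' interval holds both values. The peaks elsewhere include the packed blocks, and differences in sharing at matched scores were not tested. Of the 57 unshared members, 18 lay within 5000 bp of a replicate 2 peak, and the median distance was 9654 bp. Outside the intervals, 165 of 1224 unshared replicate 1 peaks lay that close. The intervals were chosen as places of packed peaks, so short distances to a neighbouring peak are part of that choice.

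In the 42 pairs the fold listed in replicate 1 was the larger number at every site. Replicate 1 had a median of 12.29 and replicate 2 one of 6.08, whereas the 1700 pairs elsewhere had medians of 6.21 and 5.66, with the replicate 1 value the higher in 965 (56.8%). The fragment size in the file headers (68 and 53 bp) and depth differ between the lists, so these values stand side by side. No difference in binding is read from them. The header size is the caller's value and not a measured length. Gel selection was at 200 to 500 bp in every sample. Across the 42 pairs fold had a Spearman rho of 0.66 and a Pearson r of 0.66, and tags had 0.58 and 0.66. Across the 1700 pairs elsewhere fold had 0.61 and 0.64, and tags 0.86 and 0.94. These run over neighbouring peaks of the same 2 libraries and describe them only. The distance between the paired summits had a median of 27.5 bp (quartiles 10.2 and 54.8 bp), and 30 pairs (71.4%) were within 50 bp, beside 25 bp and 63.7% elsewhere.

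**Figure D3:**
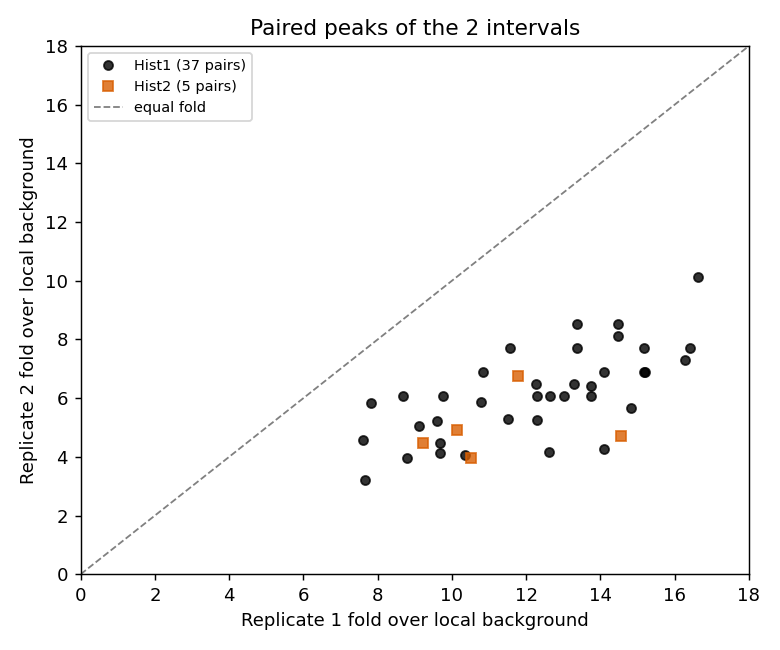
Fold over local background in replicate 2 against replicate 1 for the 37 Hist1 pairs (circles) and 5 Hist2 pairs (squares), with a dashed line of equal fold. All 42 points lie below the line.

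The Hist1 pair that ranked first by fold in both replicates lay at 23529705 to 23530291. Enrichment was 16.63-fold in replicate 1 (173 tags) and 10.14-fold in replicate 2 (128 tags), and the summits were 19 bp apart. It was the single member of replicate 2 above a fold of 10. The pair at 21291800 to 21292697 followed, with 16.4-fold (233 tags) and 7.72-fold (115 tags) in the respective replicates. At the start of the interval, the peak at 21252416 to 21252943 had 16.27-fold and 7.3-fold, and its neighbour at 21253035 to 21253547 had 13.74-fold and 6.41-fold. These neighbours were 91 bp apart in replicate 1, and both recurred as separate peaks in replicate 2.

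The peak at 21802167 to 21803155 reached 15.18-fold in replicate 1 (273 tags) and 7.71-fold in replicate 2 (170 tags). It had no other shared peak in its group. Within the group at 23488712 to 23636541, the pairs at 23527989, 23528682 and 23529705 stood next to one another, with 15.18-, 14.1- and 16.63-fold in replicate 1 and 6.9-, 6.9- and 10.14-fold in replicate 2. The pairs at 23545090 and 23558738 had 15.21- and 14.46-fold in replicate 1 and 6.9- and 8.11-fold in replicate 2. The last shared site, at 23621976 to 23622522, had 14.46- and 8.52-fold. These sites were among the 15 Hist1 pairs picked for their mean rank of fold in the 2 replicates. That they stood above the median fold of members in both replicates is therefore part of the choice.

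The remaining Hist1 pairs among the 15 best by fold had 11.57- to 13.74-fold in replicate 1. Those at 22112808 to 22113275 and 22113928 to 22114561 had 7.71-fold in replicate 2, and that at 23608814 to 23610259 had 8.52-fold. The wide peak at 22032012 to 22033064 had 13.3- and 6.49-fold, and its summits were 601 bp apart, with 2 separate replicate 2 peaks under it. The wide peak at 21259212 to 21260237 had 13.74- and 6.08-fold. Ranking all members by score put 21802167 (1283.1 and 543.4), 23608814 (1369.96 and 328.38), 21291800 (875.38 and 331.03), 23529705 (863.36 and 462.23) and, on chromosome 3, 96304656 (1025.78 and 605.43) first. These 5 sites had between 173 and 339 tags in replicate 1.

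Of the Hist1 peaks found in replicate 1 alone, 8 had a fold of 10 or more. They were the unshared ones of the 39 members at that fold (79.5% shared). Elsewhere 4 of 247 replicate 1 peaks at that fold were unshared (98.4% shared), and this difference was not tested. Beside the leading peaks at 23618154, 22027165 and 21946978 (13.74-, 13.01- and 12.29-fold), the peak at 23592227 to 23593143 had 11.57-fold with 162 tags. The peaks at 23530371 to 23530836 and 23538464 to 23538955 both had 10.84-fold, with 89 and 104 tags, and lay 64 and 192 bp from a replicate 2 peak. Those at 22120881 and 22002976 had 10.14- and 10.12-fold, and 22010927 and 23598238 followed with 9.91- and 9.81-fold. Several of these high unshared peaks thus adjoined a shared site, while that at 22002976 was 28561 bp from the nearest replicate 2 peak.

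The share of peaks found again differed among the Hist1 groups. In replicate 1, 12 of 20 peaks of the first large group were shared, 7 of 26 in the group at 21939782, 1 of 5 in that at 23377171 and 16 of 28 in that at 23488712. Median fold in replicate 1 was 9.31, 9.22, 8.68 and 11.545 in these groups, and in replicate 2 it was 5.86, 6.285, 6.08 and 6.08. The group at 21939782 thus had fewer shared peaks than the first large group at a similar median fold, and its peaks had a median of 78.5 tags against 103.5. The 4 single regions of Hist1 were weak, at 3.08- to 4.33-fold, and none of them was found in replicate 2.

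Hist2 is the shorter interval, so its lower peak number is part of the choice. The median gap between neighbouring regions was 8276 bp in Hist2 and 4059 bp in Hist1. Of the 14 replicate 1 peaks of Hist2, 5 were shared (35.7%, exact interval 12.8 to 64.9%), and its 5 replicate 2 peaks were all shared. The median of fold stood at 7.895 for replicate 1 and 4.72 for replicate 2. The peak of highest fold in replicate 1, at 96231900 to 96232484, had 14.56-fold (142 tags), and in replicate 2 it had 4.72-fold (64 tags). A run of 3 adjoining shared peaks at 96303230, 96303992 and 96304656 had 10.15-, 9.22- and 11.79-fold in replicate 1 and 4.92-, 4.46- and 6.76-fold in replicate 2. The last of them was the strongest Hist2 site by score, with 278 and 227 tags. The peak at 96961813 to 96962663, with 10.51- and 3.97-fold, stood 656 kb from the others. The single peaks at 96202774, 96301523, 96144892 and 96205840 had 8.68-, 8.58-, 7.21- and 7.11-fold in replicate 1, and those at 96154954, 96227783, 96239404, 96066058 and 96292422 had 3.38- to 5.86-fold. None of these 9 was listed in replicate 2.

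Peaks just outside the intervals were far from the groups on chromosome 13. There the nearest peaks of replicate 1 started at 19025381 (5.78-fold) and 25112107 (3.15-fold), and those of replicate 2 at 20006000 (10.38-fold) and 30533053 (7.9-fold). The first and last members of replicate 1 started at 21252416 (16.27-fold) and 23842928 (3.49-fold), and those of replicate 2 at 21252545 (7.3-fold) and 23622095 (8.52-fold). On chromosome 3 a shared peak at 95848370 lay before the interval, with 9.61-fold in replicate 1 and 9.43-fold in replicate 2. The first members there started at 96066058 (3.68-fold) in replicate 1 and 96231974 (4.72-fold) in replicate 2. The next peaks after the interval started at 98944970 (3.28-fold) and 103717937 (3.05-fold).

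Many member folds repeated exactly. The whole-number measure described below was not planned and was chosen after seeing the data. In replicate 2 a fold of 6.08 occurred at 6 members, 6.9 at 4 and 7.71 at 3, and in replicate 1 a fold of 6.87 occurred at 4 and 13.74 at 3. Over the whole lists the same folds occurred at 48, 34 and 27 peaks of replicate 2, and at 18 and 4 of replicate 1. Repeats were thus not particular to the members. The genome-wide mean, computed as unique ChIP tags times fragment size over effective genome size from the file headers, was 2.77 overlapping fragments in replicate 1 and 2.47 in replicate 2. Fold times that mean was a whole number, within 0.0158 and 0.0143, for 41 of 99 members in replicate 1 (41.4%, exact 95% interval 31.6 to 51.8%), beside 15.4% of the list. It was whole for 26 of 47 in replicate 2 (55.3%, 40.1 to 69.8%), beside 18.8% of the list. Evenly spread values would give 3.17% and 2.87%. At such peaks the caller's background is understood to be the genome-wide mean, the lowest it uses, which the headers do not state. Fold times that mean then gives the number of fragments, taken at the header's fragment size, stacked at the summit.

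Hist1 held nearly all of these peaks, 40 of 85 in replicate 1 and 25 of 42 in replicate 2, against 1 of 14 and 1 of 5 in Hist2. Stack height ran from 15 to 46 fragments (median 32) in replicate 1 and from 11 to 25 (median 16) in replicate 2. In the 19 pairs with both values, the tallest was 23529705 with 46 and 25 fragments, and 23558738 had 40 and 20. Among replicate 1 peaks with a fold of 10 or more, 26 of 39 members (66.7%) and 49 of 247 peaks elsewhere (19.8%) had a whole number. In the packed block on chromosome 4 (peaks from 145003361 to 147462524) the shares were 46.0% of 100 peaks and 37.3% of 161 in replicates 1 and 2, and in the block on X (120113576 to 122848909) they were 10.7% of 619 and 8.97% of 925. Member shares were thus nearer to those of the chromosome 4 block, whose median folds were lower at 4.825 and 4.99. The differences between blocks were not tested.

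**Figure D4:**
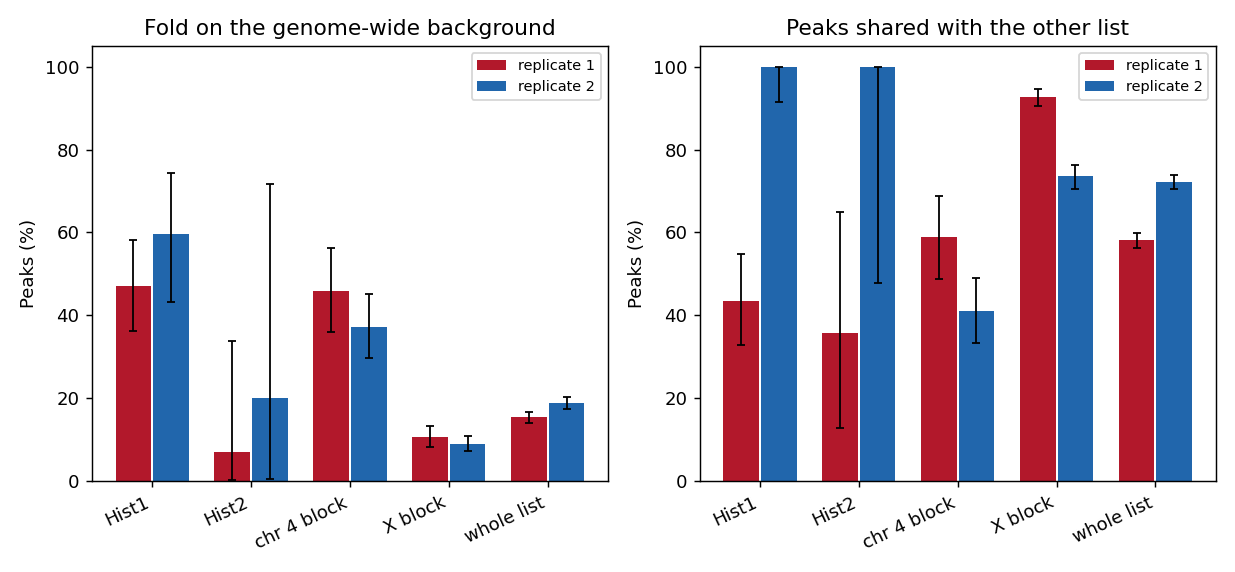
Percent of peaks whose fold was a whole number of fragments over the genome-wide mean (left) and percent shared with the other list (right), for Hist1, Hist2, the packed blocks on chromosomes 4 and X and each whole list. Bars start at 0 and error bars are exact 95% binomial intervals. On the left Hist1 stands at 47.1% and 59.5%, above 15.4% and 18.8% for the lists.

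The caller's false discovery rates were lower for members of replicate 1 than for its list, though still high. They ran from 18.97% upward, 54 members (54.5%) had at most 30%, beside 19.2% of the list, and 18 (18.2%) had 100%, beside 54.3%. In replicate 2 the lowest rate of a member was 58.83%, and 23 of 47 (48.9%) had 100%, beside 54.7% of the list. The first-ranked pair, at 23529705, had 21.24% in replicate 1 and 69.8% in replicate 2.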

How the data were processed

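ChIP-seq peak lists of 2 HIF1A samples were analysed, and the input sample was used only through the authors' calls. Per the file headers, the authors called peaks in each library alone with MACS in Galaxy, against the same control file, at a p-value threshold of 1e-05. Version 1.4.2 of MACS and build mm9 come from the submitters' processing notes (aligner: not given in the sources used here). Deposited columns were tag counts, a p-based score (10 times -log10 p), fold ratio over local background and false discovery rate (percent). Per the file headers, unique ChIP tags numbered 76075544 and 86978508 in replicates 1 and 2.

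Peaks were shared when they overlapped by at least 1 bp (checked with bedtools 2.31.1), and pairs were mutual best overlaps. The functions were tested on simulated data. Intervals are exact (Clopper-Pearson). No test was run: the members and lists were chosen with earlier results of these data known. Named peaks were the 15 best Hist1 pairs by mean rank of fold, the 10 highest of replicate 1 alone, all Hist2 peaks, the interval edges and the 5 best pairs by score. Alternatives covered overlap, thresholds, merging distance and motif.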

Additional observations from a re-analysis of the deposited data

How the results depend on the processing

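Restricting both lists to the best 50% by score left 24 shared members of 83 in replicate 1 (28.9%, beside 42.4% of all members). In replicate 2 it left 26 of 26. The median fold of replicate 2 was then 6.625. The causes of these changes were not tested. Median fold in replicate 1 was 12.29 over shared members only. The intervals' share of the list, 3.24% and 1.75% in replicates 1 and 2, was 5.43% in replicate 1 with the best 50% by score, 13.6% and 0.389% at a fold of at least 10, and 5.10% and 4.24% with other packed windows left out of the lists. The number of regions was 47 to 99 with 1 replicate left out (47 without replicate 1, 99 without replicate 2), and that of groups 9 to 13. Joining up to 25 kb gave 19 groups and joining up to 100 kb gave 7, in place of 13. ACGTG alone was found in 23.3% of histone promoter windows, beside 19.6% of all promoter windows. GCGTG alone was found in 28.3% and 32.4%, respectively. With total in place of unique tags, the share of whole numbers was 1.01% and 0% in replicates 1 and 2, and the cause was not tested. The whole-number share itself and its alternatives were chosen after seeing the data. In all, 30 alternative values, the 19 groups among them, stayed within the limits set for them. No paired analysis was possible because the ChIP group is the only replicated one. No reads were used, so how far an unlisted site fell below the caller's threshold is unknown.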
